A study of Homo sapiens with 36 samples.

Results

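EZH2 and H3K27me3 ChIP-seq peaks of shCTR cells were set against each other, to ask how much of the mark lay where its writer was called and how far the mark reached beyond it. The 4 libraries, 2 of EZH2 and 2 of H3K27me3, were taken from a series of 36 samples by their labelled target and condition. For each target, peaks of replicates 1 and 2 were joined wherever they shared 1 bp or more, and the joined region was kept if both replicates contributed to it. This gave 500 EZH2 regions out of 2770 called in either list, and 9256 H3K27me3 regions out of 40412. All cells were DU145, an established human prostate cancer line, transduced with the control pLKO.1 construct shCTR and selected with puromycin. The paper calls shCTR a control short hairpin RNA, while its list of reagents names a pLKO.1-puro empty vector as control. The series as a whole concerns PHF19, an accessory protein of the complex that contains EZH2, in prostate cancer cells.

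EZH2 is the catalytic subunit of Polycomb repressive complex 2 (PRC2), which methylates lysine 27 of histone H3. The trimethylated form, H3K27me3, marks repressed developmental genes and is bound by another complex, PRC1, through its CBX subunits. In mammals PRC2 is recruited mostly at unmethylated CpG islands, and the EED subunit binds the finished mark, which lets the complex extend it into neighbouring nucleosomes.

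The genome sequence at 3 kinds of region shows what the comparison is about. All runs are the 200 bases at the centre of the stretch that both lists called, read from GRCh37 on the plus strand, with every CpG in capitals. The first set shows 2 of the EZH2 regions with the highest EZH2 scores, which also carried H3K27me3. They lie in an intron of KMT2CP3, a pseudogene in a stretch without protein-coding genes whose nearest protein-coding start is that of NBPF16 (chr1:148854894-148855093), and in an intron of FLRT2 (chr14:85998685-85998884). They hold 22 and 4 CpG.
KMT2CP3: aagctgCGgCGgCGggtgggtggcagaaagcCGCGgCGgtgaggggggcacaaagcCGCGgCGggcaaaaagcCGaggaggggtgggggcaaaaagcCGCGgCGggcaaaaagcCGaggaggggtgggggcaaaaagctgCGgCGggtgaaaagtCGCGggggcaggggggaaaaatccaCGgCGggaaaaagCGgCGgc
FLRT2: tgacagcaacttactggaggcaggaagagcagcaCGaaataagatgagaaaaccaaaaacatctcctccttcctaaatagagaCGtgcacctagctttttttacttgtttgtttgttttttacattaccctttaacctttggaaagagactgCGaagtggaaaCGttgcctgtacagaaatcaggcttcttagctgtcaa

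The second set holds EZH2 regions that had no H3K27me3 region of both lists. One lies 1682 bp upstream of the PAX5 start (chr9:37035847-37036046, 8 CpG) and one in a coding exon of TCHH (chr1:152084037-152084236, 18 CpG).
PAX5: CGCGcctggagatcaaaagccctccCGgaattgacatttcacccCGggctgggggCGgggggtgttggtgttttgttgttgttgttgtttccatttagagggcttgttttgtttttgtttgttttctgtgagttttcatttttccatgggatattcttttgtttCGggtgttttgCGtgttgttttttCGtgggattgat
TCHH: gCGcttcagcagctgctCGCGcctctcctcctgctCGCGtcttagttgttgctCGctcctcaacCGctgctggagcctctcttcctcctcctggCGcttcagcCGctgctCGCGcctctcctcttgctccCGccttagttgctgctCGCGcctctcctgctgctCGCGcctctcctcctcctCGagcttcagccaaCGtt

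The third set holds H3K27me3 at gene starts with no EZH2 peak of either list there, with the highest H3K27me3 scores. One lies within IGF2 and an overlapping gene without a symbol, ENSG00000284779, over an exon of the noncoding antisense gene IGF2-AS (chr11:2169720-2169919, 4 CpG), one lies 1174 bp upstream of the KCNH2 start (chr7:150676483-150676682, 8 CpG), and one in an intron of SYNDIG1L (chr14:74891505-74891704, 1 CpG). The central bases of the EMX1 and NEUROD4 regions lie in untranslated exons and are not printed. The IGF2BP3 region, which ranked above both runs of the first set, is not printed either, so the runs are examples and not the full order.
ENSG00000284779: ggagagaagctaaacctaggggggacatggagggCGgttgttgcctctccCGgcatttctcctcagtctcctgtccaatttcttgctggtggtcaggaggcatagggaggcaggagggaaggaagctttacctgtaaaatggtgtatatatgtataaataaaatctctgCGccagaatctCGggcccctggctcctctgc
KCNH2: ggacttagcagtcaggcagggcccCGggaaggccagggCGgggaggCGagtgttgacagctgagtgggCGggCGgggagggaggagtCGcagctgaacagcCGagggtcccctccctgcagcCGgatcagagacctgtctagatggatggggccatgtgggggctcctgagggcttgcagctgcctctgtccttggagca
SYNDIG1L: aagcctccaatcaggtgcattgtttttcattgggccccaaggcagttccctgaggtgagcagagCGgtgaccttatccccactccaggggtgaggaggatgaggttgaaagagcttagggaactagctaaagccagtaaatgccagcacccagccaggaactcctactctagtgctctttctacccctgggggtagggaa

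The deposited EZH2 lists held 2060 peaks in replicate 1 and 1236 in replicate 2, covering 4.10 and 3.13 Mb. The H3K27me3 lists held 39254 and 15994 peaks, covering 108 and 30.4 Mb, or 3.50% and 0.983% of the genome. Each peak carries a MACS score given by the authors, which grows with the strength of the call and starts at 50 in all 4 lists. Its median was 74.7 and 140 in the EZH2 lists and 110 and 89.7 in the H3K27me3 lists. The highest score in both replicate 2 lists was 3100, shared by 3 EZH2 peaks and by 2 H3K27me3 peaks. A score of 3100 may therefore be a limit of the scoring rather than a measured height, although H3K27me3 replicate 1 reached 3195. The lists come without read totals, and sequencing depth is therefore unknown. Each sample was sequenced in a second replicate per the study's methods, and a figure legend of the study calls the replicates of both targets biological. By the same methods, Drosophila spike-in chromatin was used for EZH2 and H3K27me3, although its antibody against the histone H2Av is missing from the label of EZH2 replicate 2.

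EZH2 replicate 1 stood apart from the other 3 lists in where its peaks lay. On chromosome 14 it held 779 peaks, of which 745 fell between 25 and 55 Mb, whereas replicate 2 held 43 peaks on that chromosome. Together, chromosomes 5, 14 and 18 held 1171 of the replicate 1 peaks (56.8%) and 159 of those of replicate 2 (12.9%). On these chromosomes, 7.43% of the replicate 1 peaks lay over a promoter, against 51.4% of those elsewhere. An H3K27me3 peak of replicate 1 met 61.7% of the replicate 1 EZH2 peaks there and 83.8% elsewhere, and one of replicate 2 met 20.4% there and 76.7% elsewhere. H3K27me3 replicate 1 itself had 38.8% of its chromosome 14 peaks in the stretch from 25 to 55 Mb, and replicate 2 had 21.0%. The merged regions were little touched, since 51 of the 500 (10.2%) lay on chromosomes 5, 14 and 18. The origin of these peaks was not tested, nor was whether the EZH2 replicate 1 list comes from the library its label names. All regions of both EZH2 lists rest on that label.

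**Figure D1:**
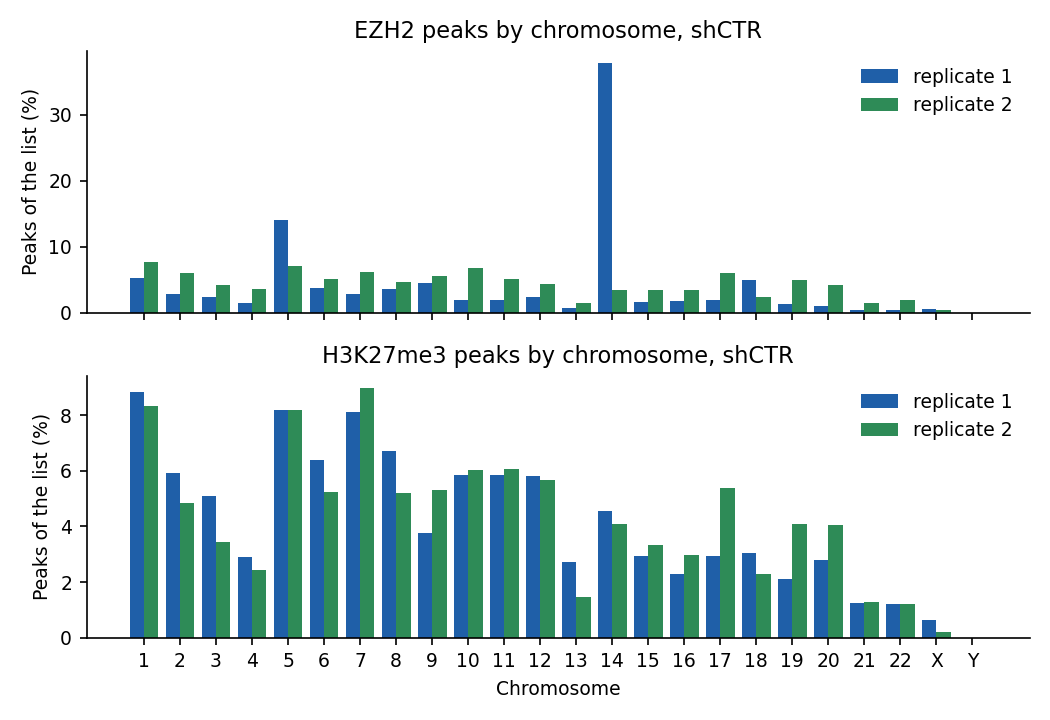
Share of each list's peaks on each chromosome (%), for EZH2 (upper panel) and H3K27me3 (lower panel, on its own scale), with a bar per replicate. EZH2 replicate 1 has 37.8% of its peaks on chromosome 14, where replicate 2 has 3.48% and the H3K27me3 lists have 4.56% and 4.08%.

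EZH2 was found almost wholly within H3K27me3. Of the 500 EZH2 regions, 482 (96.4%) overlapped an H3K27me3 region, and 420 (84.0%) lay inside one from edge to edge. By bases, 95.3% of the EZH2 sequence was marked. Against the H3K27me3 lists taken separately, 482 regions met a replicate 1 peak and 499 (99.8%) a replicate 2 peak, and 0 of the 500 lacked a peak in both. The share rested on the EZH2 peaks seen in both replicates. Of all EZH2 peaks in replicate 2, 88.3% overlapped an H3K27me3 region, but 47.6% of those in replicate 1 did, and 75.8% of those in replicate 1 when chromosomes 5, 14 and 18 were left out, a choice made after the data were seen.

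Peaks that a single EZH2 list called were of unlike kinds in the 2 replicates. Outside the 500 regions, replicate 1 had 1546 peaks, of which 31.4% overlapped an H3K27me3 region and 8.41% a promoter, with a median of 0.612 CpG per 100 bp. Replicate 2 had 724 such peaks, of which 82.6% overlapped an H3K27me3 region and 70.6% a promoter, with a median of 6.96 CpG per 100 bp. Requiring the mark in both lists weighed on these shares, and an H3K27me3 peak of either list met 63.5% of the replicate 1 peaks and 93.2% of the replicate 2 peaks. Leaving chromosomes 5, 14 and 18 aside, the shares with an H3K27me3 region were 53.6% of 427 peaks and 83.4% of 616 peaks.

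The strongest EZH2 regions were those ranked highest by score in both lists. The leading one lay over EMX1, a homeobox transcription factor of the developing forebrain (chr2:73141219-73147822), with EZH2 scores of 1285 in replicate 1 and 2876 in replicate 2. Its H3K27me3 scores were 1129 and 1791, and the marked domain around it was 30.2 kb long. At IGF2BP3, an oncofetal RNA-binding protein, the EZH2 scores were 1034 and 3001 and the H3K27me3 scores 1834 and 3100, in a domain of 23 kb. FLRT2, a cell adhesion and guidance receptor, had EZH2 scores of 1521 and 2016 and the narrower domain of 8.77 kb, little more than the 8026 bp of EZH2 itself.
At NTNG2, a membrane-bound netrin of axon guidance, EZH2 scored 1034 and 2251. H3K27me3 at that EZH2 region scored 341 in replicate 1 and 1950 in replicate 2, so the H3K27me3 lists ranked this site differently. The KMT2CP3 region had EZH2 scores of 953 and 3100 but H3K27me3 scores of 380 and 643, over a marked stretch of 2.21 kb. It was the only one of these 5 away from a promoter, 114470 bp from the nearest protein-coding start.

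Among the EZH2 regions, stronger EZH2 went with stronger H3K27me3 at the same place, loosely. Spearman's rho between the scores was 0.36 over 482 regions in replicate 1 and 0.44 over 499 in replicate 2. Wide regions offer more bases to both, and regions are not independent replicates. Between replicates, the rho was 0.52 for the EZH2 scores over 500 regions and 0.43 for the H3K27me3 scores over 9256. EZH2 scores bore no such relation to the length of the marked domain, with a rho of 0.02 in replicate 1 over 482 regions. The width of the EZH2 region did, with a rho of 0.34.

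At 18 EZH2 regions no H3K27me3 region was kept, and there the mark had been called in 1 list. At 17 of them replicate 2 had an H3K27me3 peak, with a median score of 811 and a range from 124 to 1697, while the nearest replicate 1 peak was a median of 10.1 kb away. At PDZD4 the reverse held, with a replicate 1 score of 418. The scores in replicate 2 were not weak ones, and the median for H3K27me3 regions with EZH2 in that list was 749. Why replicate 1 lacks peaks at these places was not tested.
The 10 regions of this kind with the highest EZH2 scores included 2 at PAX5, the transcription factor of B cell identity. The first (chr9:37033616-37038761) had EZH2 scores of 728 and 1082 and a replicate 2 H3K27me3 score of 1697, and the second had EZH2 scores of 67.5 and 432. TCHH encodes trichohyalin of the hair follicle, and its EZH2 region of 13151 bp was covered to 100% by replicate 2 H3K27me3 peaks. Neural genes were SYT2, a calcium sensor of synaptic vesicles, with EZH2 scores of 297 and 312, and GRM4, a metabotropic glutamate receptor, with 85.0 and 303. GLI3, a transcription factor of hedgehog signalling, had EZH2 scores of 93.7 and 329 at a promoter inside the gene. The others were PGBD5, PSD2, CPZ and a region between genes nearest to FAM72B, with EZH2 replicate 1 scores from 51.6 to 124. All but the region near FAM72B lay over a promoter.

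Seen from the mark, EZH2 was rare. Of the 9256 H3K27me3 regions, 468 (5.06%) overlapped an EZH2 region, and 3.26% of the marked bases lay inside EZH2. An EZH2 peak of at least 1 list was present at 1326 (14.3%), which left 7930 (85.7%) with no EZH2 peak in either. Most of the regions with EZH2, 450 of 468, held 1 EZH2 region, and the most in any was 3. Within those 468, EZH2 occupied 37.5% of the marked bases.
These shares moved with the library left out. With EZH2 replicate 2 alone the share of H3K27me3 regions with EZH2 was 11.0%, and with EZH2 replicate 1 alone 8.50%. With H3K27me3 replicate 1 alone, the longest of the lists, it was 1.22%, and it was 1.99% when EZH2 had to overlap at least 50% of the H3K27me3 region. The share of marked bases inside EZH2 ranged from 1.61% with H3K27me3 replicate 1 alone to 5.67% with H3K27me3 replicate 2 alone, and was 5.20% with EZH2 replicate 2 alone. Whether weaker EZH2 signal lay below the calling threshold elsewhere in the mark was not tested, since the lists hold called peaks only.

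EZH2 concentrated at the strong and wide end of the mark. H3K27me3 scores of the regions with EZH2 had medians of 720 in replicate 1 and 749 in replicate 2, against 298 and 99.0 in the regions without. When the regions were ordered by replicate 2 score and divided into 10 equal groups, 359 of the 926 in the top group had EZH2 (38.8%), and 0 of the 925 in the lowest. Ordered by replicate 1 score, the top group had EZH2 at 17.1% and the lowest at 0.973%. Score and width rose together. The median width went from 2237 bp in the lowest group to 9478 bp in the top one by replicate 1 score. By replicate 2 score it went from 2892 to 9327 bp. The plot of EZH2 by strength of the mark shows the steeper course in replicate 2.

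**Figure D2:**
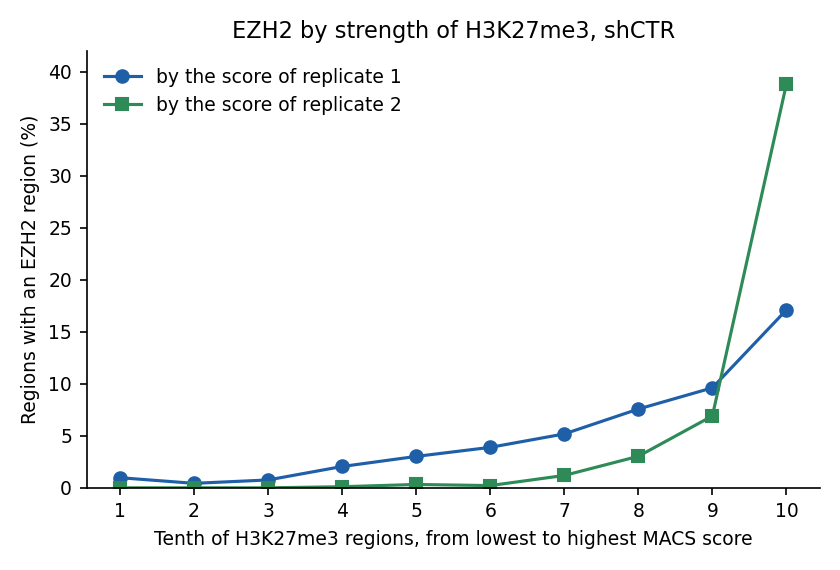
Share of H3K27me3 regions that overlap an EZH2 region (%), for 10 equal groups of the 9256 regions ordered by H3K27me3 MACS score in replicate 1 (circles) or replicate 2 (squares). The top group reaches 17.1% by replicate 1 and 38.8% by replicate 2.

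Width, which is not independent of the score, gave the same order. Of H3K27me3 regions under 2 kb, 4 of 1077 (0.371%) had EZH2, and of those of 20 kb or more, 40 of 178 (22.5%) did. The median width was 7857 bp for H3K27me3 regions with EZH2 and 4275 bp for those without, while EZH2 regions themselves had a median of 3188 bp. Merging 2 lists can widen a region, and the medians of the single lists were smaller with the same order. H3K27me3 peaks of replicate 1 were 5760 bp wide where an EZH2 peak of replicate 1 met them and 1770 bp elsewhere, and those of replicate 2 were 2901 and 1299 bp by the same comparison with EZH2 replicate 2. A wider region has more room to meet a peak by position alone, and how much of the difference this accounts for was not tested.
With EZH2 replicate 1 alone, the median EZH2 width was 1492 bp. With H3K27me3 replicate 2 alone, the medians of the mark were 3659 bp with EZH2 and 1326 bp without, and with H3K27me3 replicate 1 alone they were 7037 and 1790 bp.

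**Figure D3:**
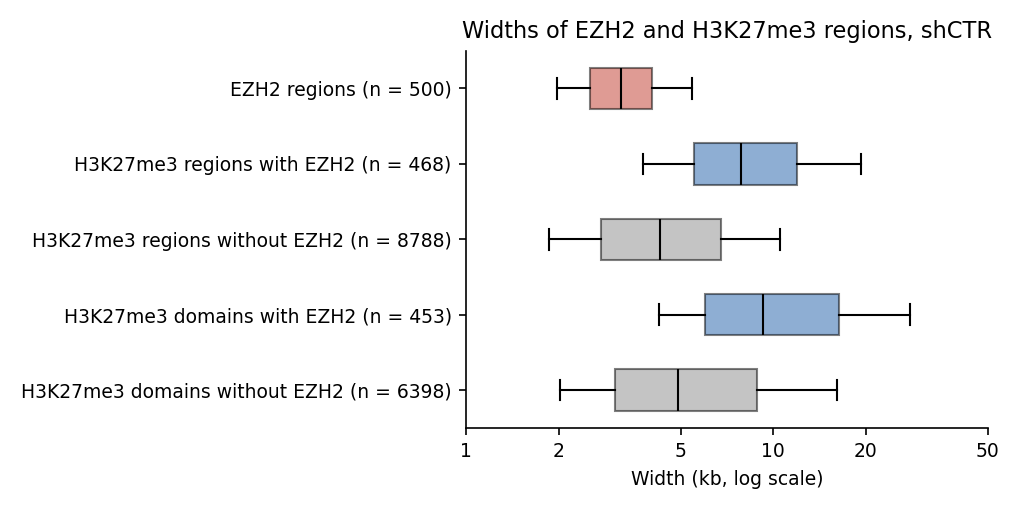
Widths in kb (log scale) of EZH2 regions, H3K27me3 regions and H3K27me3 domains, which join regions up to 3 kb apart, split by overlap with EZH2. Boxes span the 25th to 75th percentiles with the median as a line, and whiskers the 10th and 90th percentiles. Medians are 3188 bp for EZH2, 7857 and 4275 bp for H3K27me3 regions with and without EZH2, and 9279 and 4894 bp for domains.

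The mark spread to both sides of EZH2 over a few kb. H3K27me3 regions up to 3 kb apart were joined into 6851 domains, of which 453 held EZH2 and had a median width of 9279 bp. That width was 5617 bp with an overlap of at least 50%, and 5845 bp when only bases shared by both replicates were used. Around each marked EZH2 region the domain was a median of 2.88-fold wider than the EZH2 region. It reached a median of 2632 bp past an EZH2 edge, with 1468 bp on the nearer side and 4442 bp on the farther. Of the 964 sides, 77.1% had over 1 kb of mark past the edge, 31.8% over 5 kb and 15.2% over 10 kb.

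Position by position, H3K27me3 regions covered 96.4% of the EZH2 midpoints, 84.6% of positions 2 kb away, 41.0% at 5 kb, 21.7% at 10 kb and 7.40% at 50 kb. EZH2 regions themselves covered 26.8% of positions at 2 kb and 5.10% at 5 kb, so the mark fell off more slowly than its writer. The background, the starts of all protein-coding genes, was covered by the mark at 6.92% at 0 kb and 3.45% at 5 kb, and the genome at 1.73%. By list, the coverage at 5 kb was 46.1% in H3K27me3 replicate 1 and 24.4% in replicate 2, which called the mark more narrowly. With EZH2 replicate 1 alone, the H3K27me3 regions covered 27.1% of positions at 5 kb, and with bases shared by both replicates 22.9%.
For 351 EZH2 regions with a gene start, sides could be named by the direction of transcription. The mark lay at 5 kb upstream in 40.7% and 5 kb downstream in 36.2%, and at 2 kb in 86.3% on both sides. In H3K27me3 replicate 1 the values at 5 kb were 47.0% and 41.6%, and in replicate 2 they were 22.8% and 20.2%. At 10 kb, 20.5% upstream and 16.8% downstream were marked, with 24.5% on both sides in replicate 1 and 13.1% and 12.0% in replicate 2. The difference between sides was smaller than that between the replicates.

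**Figure D4:**
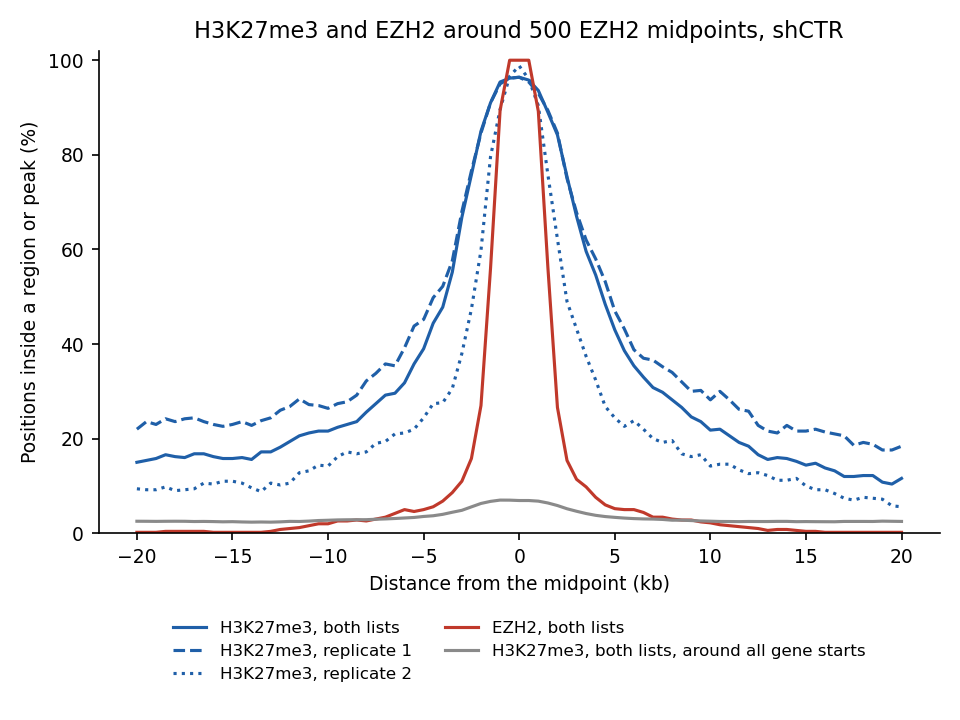
Share of positions (%) inside an H3K27me3 or EZH2 region, by distance in kb from the midpoints of the 500 EZH2 regions, with single H3K27me3 replicates as broken lines and the starts of all protein-coding genes in grey. At 5 kb the mark covers 41.0% of positions and EZH2 covers 5.10%.

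The widest domains around EZH2 were not those with strong EZH2. The widest, 162 kb, lay on chromosome 14 within NPAS3, a neuronal bHLH-PAS transcription factor, and its EZH2 region (chr14:34254483-34258921) scored 58.7 and 57.8, near the lowest score listed. It is on a chromosome where EZH2 replicate 1 stands apart. A domain of 129 kb surrounded the start of PIP5K1B, a phosphatidylinositol phosphate kinase, where EZH2 scored 60.4 in replicate 1 and 380 in replicate 2. Around CEACAM21, of a family of cell adhesion molecules, the domain was 125 kb and EZH2 scored 89.2 and 117.
LORICRIN, a protein of the cornified envelope of skin, lay in a domain of 85.0 kb with EZH2 scores of 191 and 158. NTNG2, described above, was the exception with scores of 1034 and 2251 in a domain of 81.0 kb.

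For H3K27me3 regions without EZH2, the median distance to the nearest EZH2 region was 1243 kb, and 12.6% lay within 100 kb of one. The 500 EZH2 regions cover 0.0591% of the genome, so long distances are likely from their small number alone. Whether these distances differ from those of other positions was not tested. Of the 8788, 227 (2.58%) belonged to a domain that held EZH2 elsewhere. The mark around their midpoints depended on the distance. At 5 kb, 28.9% of positions were in an H3K27me3 region, against 41.0% around EZH2, and at 50 kb 17.5% against 7.40%. By list, the values at 5 kb were 44.4% against 46.1% in replicate 1, a small difference, and 14.5% against 24.4% in replicate 2. At 10 kb they were 40.2% against 27.3% in replicate 1 and 14.1% against 14.2% in replicate 2. At 50 kb they were 28.8% against 11.7% in replicate 1 and 10.1% against 5.70% in replicate 2.

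EZH2 and the mark without it occupied different sequence. A promoter, taken as 2.5 kb to each side of a protein-coding transcript start, was met by 405 of 500 EZH2 regions (81.0%) and 84.2% of the H3K27me3 regions with EZH2. Of the 8788 H3K27me3 regions without EZH2, 21.6% met a promoter, 30.1% lay elsewhere in genes and 48.2% between genes. Promoters so defined make up 5.19% of the genome. With EZH2 replicate 1 alone, 26.4% of EZH2 peaks met a promoter, and with H3K27me3 replicate 1 alone, 9.80% of the mark without EZH2 did.
CpG density divided the classes in the same way. The median was 5.83 CpG per 100 bp in EZH2 regions, 3.46 in H3K27me3 regions with EZH2 and 0.827 in those without, and the genome has 0.985. In the 1 kb at the midpoint, the medians were 7.70 for EZH2 regions, 4.65 for H3K27me3 regions with EZH2 and 0.800 for those without. The midpoint of a wide region need not be its most CpG-rich part. The density fell to 1.80 at 2 kb from the EZH2 midpoint and to 1.20 at 5 kb, where the mark still covered 41.0% of positions. EZH2 replicate 1 alone had a median of 0.745, or 3.83 off chromosomes 5, 14 and 18, and replicate 2 alone had 6.69.
The KMT2CP3 and SYNDIG1L runs printed above are far apart in this, with 22 and 1 CpG in 200 bases. They are the extremes, and the other runs overlap. With EZH2, FLRT2 has 4, PAX5 8 and TCHH 18, and at starts without an EZH2 peak ENSG00000284779 has 4 and KCNH2 8. The ENSG00000284779 mark, scored 2506 and 1987, has the same scores at EZH2 regions further inside the gene, in a domain of 21.0 kb. That run therefore does not stand for the mark without EZH2. All the runs are examples, and the medians above stand for the classes. Among H3K27me3 regions of 5 to 10 kb, those with EZH2 met a promoter in 86.2% and had 3.60 CpG per 100 bp, and those without met one in 24.2% with 0.896 CpG per 100 bp, so the contrast held at like width.

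Gene starts, compared with each other, showed a smaller contrast. The 1 kb at starts with EZH2 had a median of 8.49 CpG per 100 bp, at starts with H3K27me3 without EZH2 6.19, and at all starts 5.79. At marked starts with no EZH2 peak in either list it was 5.29, below all starts. Of the marked starts with under 2 CpG per 100 bp, 15 of 364 (4.12%) also had EZH2, and of those with 10 or more, 121 of 406 (29.8%) did. Counting an EZH2 peak of either list, these shares were 11.8% and 62.6%.

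Of 20163 protein-coding genes, 2657 (13.2%) had an H3K27me3 region and 448 (2.22%) an EZH2 region between 2.5 kb upstream of the start and the end of the gene. Both were present at 439 genes, which were 98.0% of the EZH2 genes and 16.5% of the H3K27me3 genes. The mark without EZH2 was found at 2218 genes, and 1593 of these had no EZH2 peak in either list. With EZH2 replicate 2 alone, genes with both numbered 936, and with H3K27me3 replicate 1 alone, genes of the mark without EZH2 numbered 3514.
The genes with both had the mark at their start more often, 85.6% against 67.3% of the genes of the mark without EZH2. They carried a median of 7.34 kb of it, against 4.40 kb. Median gene lengths were 48.1 and 38.0 kb, so genes with both were also longer.

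Among genes with no EZH2 peak in either list, 5 carried the longest H3K27me3. GRIN2B, a subunit of the NMDA glutamate receptor (chr12:13590876-14134936), carried 192 kb of H3K27me3 with top scores of 1777 and 318 in replicates 1 and 2. TNR, the extracellular matrix protein tenascin-R, carried 167 kb with scores of 1125 and 212. CACNA1C, a voltage-gated calcium channel subunit, carried 98.9 kb, and GRIK4, a kainate receptor subunit, 70.9 kb, both without mark at the gene start. XKR4 carried 76.5 kb, with a replicate 1 peak of 131 at its start and none there in replicate 2. In all 5 the replicate 1 score was above that of replicate 2.
A large amount of mark did not go only with a lack of EZH2. Of the genes with both, those with the most mark, chosen after the values were seen, were ALK, a receptor tyrosine kinase, with 410 kb, PRKG1, a cGMP-dependent kinase, with 355 kb, EBF1, a B cell transcription factor, with 307 kb, PLXNA4, a semaphorin receptor, with 268 kb, and NPAS3 with 257 kb. Their EZH2 covered from 3.35 kb at ALK to 5.44 kb at PRKG1.

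At gene starts, the strongest mark without EZH2 was at genes of several kinds. ENSG00000284779, which overlaps the imprinted growth factor gene IGF2, had H3K27me3 scores of 2506 and 1987 at its start, with no EZH2 there, although EZH2 covered 7.97 kb further inside the gene. NEUROD4, a proneural bHLH factor (chr12:55413758-55423801), had scores of 2151 and 1072, the mark covered 94.1% of its interval, and no EZH2 peak was called in either list. KCNH2, the cardiac potassium channel, had scores of 1689 and 989 over a short stretch of 3.96 kb. SYNDIG1L, with scores of 1590 and 1189, was marked over 87.6% of its interval.
RAD21, a cohesin subunit needed in dividing cells, had scores of 1525 and 1255 at its start over 1.89 kb. The origin of a strong H3K27me3 peak at a gene of that kind was not tested. A like case among the 47 ribosomal protein genes was RPL38, with H3K27me3 scores of 491 and 523 and no EZH2 peak in either list. It was the only one of them with an H3K27me3 region (2.13%), and 0 had an EZH2 region, beside 13.2% and 2.22% of all genes. The difference was not tested.

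Transcription factor families were counted next. Since 98.0% of all EZH2 genes were marked, the mark was likely to be at more genes than EZH2 in any family. Against 13.2% and 2.22% of all genes, 74 of 104 homeobox genes outside the HOX clusters had H3K27me3 and 29 had EZH2. All 29 were among the 74, while EZH2 was at 16.5% of all H3K27me3 genes, and this difference was not tested. Single lists gave EZH2 at 33 of the 104 in replicate 1 and 47 in replicate 2, beside 660 and 1017 of all 20163 genes. PAX2, a kidney and midbrain factor, carried 62.9 kb of mark and 21.8 kb of EZH2, with EZH2 scores of 202 and 1176. PAX7, of muscle stem cells, had EZH2 scores of 472 and 1391. HMX1 had 19.8 kb of mark and an EZH2 peak in replicate 2 only, scored 680.
The HOX clusters were counted apart from the other homeobox genes. H3K27me3 was present at 11 of 39 HOX genes (28.2%) and an EZH2 region at 0, a count near the 2.22% of all genes, and the difference from the other homeobox genes was not tested. HOXD10 carried 12.8 kb of mark with scores of 274 and 158 and had an EZH2 peak in replicate 1 only, scored 58.5. HOXD13, which patterns the digits, had H3K27me3 scores of 855 and 1083 and EZH2 peaks in both lists, scored 98.3 and 126, that did not overlap each other and so formed no region. By list, 5 HOX genes had an EZH2 peak in replicate 1 and 1 in replicate 2.

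Among other developmental factors, H3K27me3 and EZH2 were at 10 and 6 of 19 SOX genes, 18 and 9 of 42 forkhead genes, and 9 and 4 of 23 GATA and T-box genes, beside 13.2% and 2.22% of all genes. As shares these are 52.6% and 31.6% for SOX, 42.9% and 21.4% for forkhead, and 39.1% and 17.4% for GATA and T-box genes. Of the marked genes, EZH2 was at 6 of 10 SOX, 9 of 18 forkhead and 4 of 9 GATA and T-box genes. Among all H3K27me3 genes it was at 16.5%, and the differences were not tested. In replicates 1 and 2 taken singly, EZH2 was at 6 and 7 SOX genes and 10 and 13 forkhead genes. It was at 5 and 7 GATA and T-box genes. SOX21, a neural progenitor factor, had EZH2 scores of 158 and 335 with 5.24 kb of mark. FOXF1 and FOXF2, mesenchymal regulators, were marked over 100% of their intervals. At FOXF2 the H3K27me3 score was 70.4 in replicate 1 and 1516 in replicate 2, and at FOXF1 158 and 1492, so this mark was weak in replicate 1. GATA3, a lymphoid and mammary regulator, had EZH2 scores of 667 and 1682 and 13.0 kb of mark.
Of 29 bHLH genes of neural, mesodermal and other lineages, 17 had the mark (58.6%) and 6 had EZH2 (20.7%). The shares among all genes are 13.2% and 2.22%. EZH2 peaks of replicate 1 alone were at 8 of the 29 and those of replicate 2 alone at 11. TWIST1, a regulator of mesenchyme, carried 22.0 kb of mark and an EZH2 peak of 70.8 in replicate 1 only, and HAND1, a cardiac factor, had EZH2 in both lists with 159 and 651. OLIG2, of the oligodendrocyte lineage, had H3K27me3 scores of 531 and 1092 and an EZH2 peak of 220 in replicate 2 only.

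Signalling genes were set beside the same 13.2% and 2.22% of all genes. H3K27me3 was at 15 of 29 WNT ligands and antagonists (51.7%) and EZH2 at 4 (13.8%). Among the 4 were WNT3A with EZH2 scores of 92.9 and 216 and WNT6 with 236 and 261. EZH2 peaks of replicate 1 alone were at 4 of the 29 genes and those of replicate 2 alone at 10. WIF1, a secreted WNT inhibitor, carried 12.2 kb of mark and a replicate 2 EZH2 peak of 75.5. For BMP, GDF and hedgehog signalling the counts were 15 (57.7%) and 9 of 26, the highest EZH2 share of the lists other than the study's own sites, at 34.6%. BMP4, a ligand of the family, had EZH2 scores of 492 and 1118 and H3K27me3 scores of 613 and 1335. GLI3 carried 125 kb of mark and 3.12 kb of EZH2.

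Ion channel, neurotransmitter receptor and neural adhesion genes were counted in the same way, again beside 13.2% and 2.22% of all genes. Of 36 potassium, calcium and sodium channel genes, 20 had H3K27me3 (55.6%) and 4 had EZH2 (11.1%), and of 35 glutamate and GABA receptor genes, 11 (31.4%) and 3 (8.57%) did. EZH2 replicate 1 alone had a peak at 5 channel and 3 receptor genes, and replicate 2 alone at 8 and 6. KCND3, an A-type potassium channel, carried 72.6 kb of mark with top scores of 2072 and 581 and an EZH2 peak of 134 in replicate 2 only. GRID1, a delta-type glutamate receptor, was an example with both, with EZH2 scores of 107 and 828. Of 42 neural adhesion genes, 10 had the mark (23.8%) and 1 had EZH2 (2.38%). That gene was NLGN1, a synaptic neuroligin, with EZH2 scores of 485 and 608, while TENM2, a teneurin, carried 166 kb of mark and an EZH2 peak in replicate 1 only. In either replicate alone, 4 of the 42 genes had an EZH2 peak.
These lists differ in gene length, with medians of 194 kb for the channels, 307 kb for the receptors and 812 kb for the adhesion genes, against 27.2 kb for all genes. A long gene has more room for a region, and the part of length in these counts was not tested.

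Genes of the prostate and of epithelia form short lists. Of 11 luminal and androgen-regulated genes, 2 had H3K27me3 (18.2%) and 1 had EZH2 (9.09%), counts too small to set against the shares among all genes. KLK2, a kallikrein protease, had 16.6 kb of it and no EZH2 peak, and TMPRSS2, a membrane serine protease, had EZH2 scores of 224 and 463 away from its start. Of 7 epithelial genes, 0 had a region of either kind, although CDH1, the gene of E-cadherin, had a replicate 2 H3K27me3 peak of 171 and EPCAM, another adhesion gene, one of 90.9, and the basal keratin gene KRT5 a replicate 1 peak of 61.2. Of 11 cell cycle inhibitor genes, CDKN2A among them, 0 had a peak of either kind in any list. Lists this short can hold no such gene when 13.2% and 2.22% of all genes do, and the difference was not tested.
Polycomb's own genes were counted beside the same shares of all genes, 13.2% and 2.22%. Of 13 PRC2 genes, EPOP alone had an H3K27me3 region (7.69%), with low scores of 50.5 and 88.1, and an EZH2 peak of 193 in replicate 2 only. Of 18 PRC1 genes, 5 had H3K27me3 (27.8%) and 3 had EZH2 (16.7%). These are few genes, and the difference between the complexes was not tested. CBX8 had H3K27me3 scores of 3157 and 3100 and EZH2 scores of 596 and 1414, and CBX2 had EZH2 scores of 81.2 and 144. CBX7 had H3K27me3 scores of 62.9 and 52.1 and no EZH2 peak, and RING1, a ubiquitin ligase subunit, had 259 and 322, also without EZH2.

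**Figure D5:**
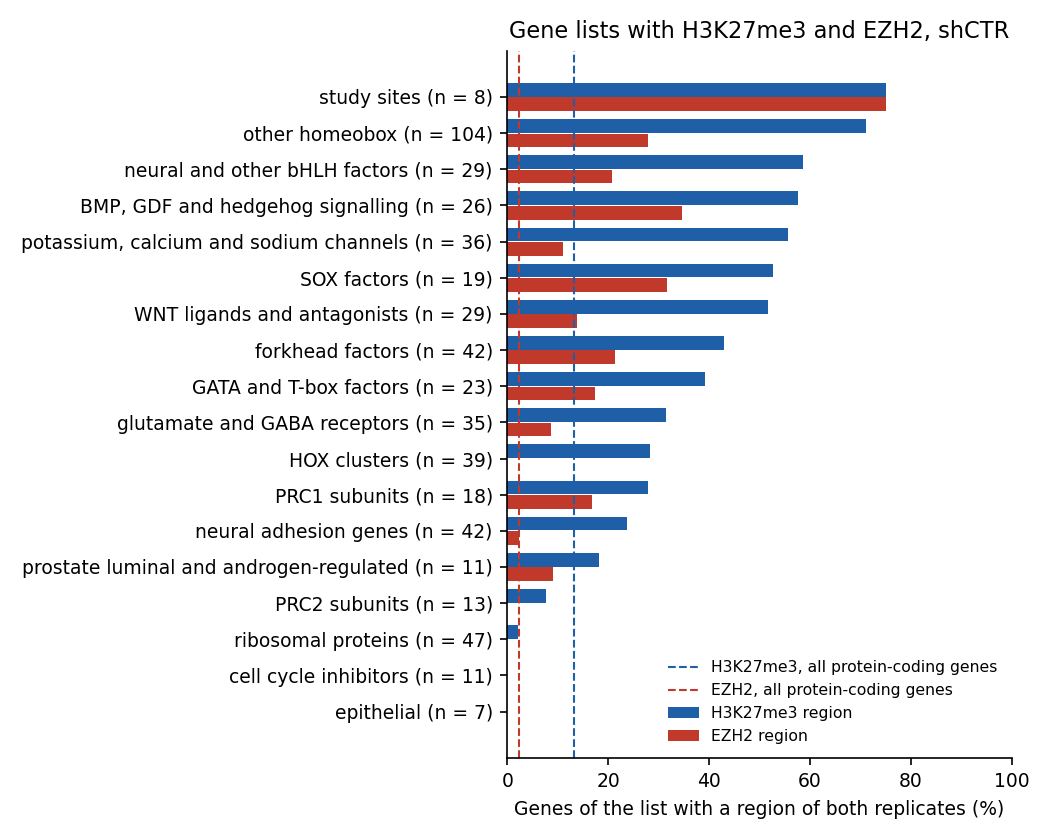
Share of the genes of each list (%) with an H3K27me3 region (blue) and an EZH2 region (red) of both replicates, with broken lines at the shares among all protein-coding genes, 13.2% and 2.22%. EZH2 is below the mark in all lists that hold any region, save the study's own sites, where both are at 6 of 8 genes. As 98.0% of all EZH2 genes are also marked, this order was likely in any list.

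A last list holds genes that the study itself displays or tests, chosen on these samples, so their count is no independent evidence. It includes GATA2, a haematopoietic factor that serves the study as a negative control. Between 2.5 kb upstream of the start and the gene's end, both EZH2 and H3K27me3 were found at 6 of these 8 genes. Among all protein-coding genes, both were found at 439 (2.18%). DUSP4, a MAP kinase phosphatase, had EZH2 scores of 1133 and 1768, and SHH, the hedgehog ligand, 226 and 713. At IGFBP3, which binds insulin-like growth factors, EZH2 scored 198 and 243 at the start. At ATF3, a stress-induced transcription factor, EZH2 scored 525 and 1149 and H3K27me3 1317 and 1699, both away from the gene's start. IGF2BP3 is given above. GATA2 had no peak in any of the 4 lists. EPHB3, an ephrin receptor, had a replicate 1 H3K27me3 peak of 68.0 only within that interval, but 3 EZH2 regions between genes had its start as the nearest, 35190 to 69388 bp away. All 3 carried H3K27me3, with scores of 2111 and 1646 at the farthest, 1515 and 1057 at another, and 53.0 and 879 at the nearest.

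Other PRC2 proteins of the same cells were called at the mark with EZH2 far more often than at the mark without. PHF19 peaks met 78.4% of the H3K27me3 regions with EZH2 in replicate 1 and 98.7% in replicate 2, and 342 (3.89%) and 2371 of the 8788 without. For MTF2, another accessory protein, the shares were 93.2% and 99.8% with EZH2, and 9.85% and 47.1% without. For the core subunit SUZ12 they were 18.6% and 35.9% with EZH2, and 1.51% and 0.296% without. The lists ranged from 232 SUZ12 peaks to 32254 MTF2 peaks, both in replicate 2. SUZ12 met more of the regions with EZH2 in replicate 2, with those 232 peaks, than in replicate 1 with 1523, while for PHF19 and MTF2 the longer list met more. What set these shares was not tested. At the 18 EZH2 regions without an H3K27me3 region of both lists, MTF2 was called at 16 and 18 in the respective replicates. PHF19 was called there at 12 and 17, and SUZ12 at 2 and 5. As shares these are 88.9% and 100% for MTF2, 66.7% and 94.4% for PHF19, and 11.1% and 27.8% for SUZ12. Among all 500 EZH2 regions the shares were 92.8% and 99.6%, 78.2% and 97.8%, and 17.6% and 34.4%. The difference was not tested.
The mark without EZH2 was found again in other libraries. H3K27me3 peaks of DU145 cells with a short hairpin RNA against PHF19L (shPHF19L#4) met 91.1% of the H3K27me3 regions without EZH2 in replicate 1 and 98.0% in replicate 2, beside 95.1% and 100% of those with EZH2. These libraries are of another condition and hold 35128 and 57026 peaks, and the effect of the hairpin was not tested here.

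With 2 lists of each target, an exact two-sided permutation test could not go below p = 0.333, so none was run, and all values are descriptions of the 4 libraries. Peak lists show where calls were made, not how much signal lay below them, and which step made replicates differ cannot be told apart from the lists alone.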

How the data were processed

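ChIP-seq peaks of EZH2 and H3K27me3 in shCTR cells were used. The authors aligned reads with Bowtie to hg19 (GRCh37) and the fly genome dm3 and called peaks in every replicate with MACS, and the deposited score of each peak is their MACS score. The PHF19 and MTF2 lists of replicate 1 were used for positions only. The DiffBind tables hold the authors' own comparisons and were not used.

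Overlaps of at least 1 bp were computed with Python 3.11.15 and numpy 2.4.6, rank correlations with scipy 1.17.1, and CpG counts with samtools 1.23.1 and pysam 0.24.0. Plots used matplotlib 3.10.9. The interval code was tested on simulated data. Genes came from GENCODE release 44 mapped to GRCh37. A region's score was its highest peak in each list.

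The members and gene lists were chosen with earlier results of these data known. Named were the first 5 EZH2 regions by summed score rank, the 5 in the widest domains, the first 10 without the mark, the 5 genes with most mark and the 5 gene starts with strongest mark among those with no EZH2 peak, up to 4 genes with the most mark from each list, and the study's sites. Any other name was picked after its values were seen.

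Alternatives were each replicate left out, regions of either replicate, bases shared by both, a score of at least 100, an overlap of at least 50%, domain gaps of 1 and 10 kb, promoters of 1 kb, and gene starts in place of whole genes. Added after the data were seen were chromosomes 5, 14 and 18 left out, for all lists and for EZH2 replicate 1 alone, and no EZH2 peak in either list as the criterion.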

Additional observations from a re-analysis of the deposited data

How the results depend on the processing

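No paired analysis was possible because the values come from no test and the libraries of a replicate carry no label that pairs them. Values are set against the spread (1 SD) between the replicate 1 lists and the replicate 2 lists, and the counts of genes against a factor of 1.5. Where a value moved, the cause was not tested.

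Leaving out 1 library in turn gave 47.6% to 99.8% of EZH2 regions with H3K27me3 and 1.22% to 11.0% of H3K27me3 regions with EZH2. Median widths ranged from 1492 to 3188 bp for EZH2, 3659 to 8459 bp for H3K27me3 with EZH2 and 1326 to 4178 bp without. Genes with both ranged from 441 to 936 and genes of the mark without EZH2 from 1721 to 3514. Promoter shares ranged from 26.4% to 81.0% for EZH2 and 9.80% to 21.3% for the mark without EZH2, and median CpG per 100 bp from 0.745 to 6.69 and 0.682 to 0.832.

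Regions called in either replicate moved 9 of 14 values: 77.9% of EZH2 regions with H3K27me3, widths of 1671 bp for EZH2, 5832 bp for the mark with EZH2 and 1717 bp without, 1146 genes with both, promoter shares of 37.8% for EZH2 and 9.22% for the mark without, and CpG of 1.05 and 0.686. With bases shared by both replicates the widths were 2342, 3720 and 1244 bp, H3K27me3 at 5 kb was 22.9%, and 16.8% of the mark without EZH2 met a promoter. With a score of at least 100, the mark without EZH2 had a width of 5931 bp, a promoter share of 31.3% and a CpG of 1.01, and genes with both numbered 250. An overlap of at least 50% gave a width of 5497 bp for the mark with EZH2 and a promoter share of 15.8% for the mark without. It also gave 1.99% of H3K27me3 regions with EZH2 and a domain width of 5617 bp, and shared bases a domain width of 5845 bp and a higher share of marked bases inside EZH2, which stayed within the wide spread between replicates but moved by more than the factor of 1.5.

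Leaving out chromosomes 5, 14 and 18 moved 0 of 14 values beyond the spread. That spread itself includes the replicate 1 peaks on these chromosomes, so it is a wide measure. With EZH2 replicate 1 alone off these chromosomes, 75.8% of EZH2 peaks had H3K27me3 and their width was 1867 bp. Their promoter share was 51.4% against 81.0% as described, and their CpG 3.83 against 5.83. Both stayed within the spreads of 34.0 and 4.21. With no EZH2 peak in either list, 17.3% of the mark met a promoter. Domain gaps and promoter windows moved no value beyond the spread, and gene starts in place of whole genes kept both gene counts within the factor.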
